A study of Homo sapiens with 24 samples.

Results

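Integrins, laminins and basement membrane genes, with some other matrix and adhesion genes, were followed here as a set of 35 genes, out of 26364 genes in the deposited count table. Not all of them hold a keratinocyte to its basement membrane. The members were found by gene symbol, and all 35 had reads and passed the filter on low counts, which left 15757 genes tested. The set holds 6 integrin alpha chains (ITGA1, ITGA2, ITGA3, ITGA5, ITGA6, ITGAV), 5 beta chains (ITGB1, ITGB4, ITGB5, ITGB6, ITGB8) and 6 laminin chains (LAMA3, LAMA5, LAMB1, LAMB2, LAMB3, LAMC1). It also holds 4 type IV collagen chains, the nidogens NID1 and NID2, the heparan sulfate proteoglycans HSPG2 and AGRN, and 5 genes of hemidesmosomes and anchoring fibrils (COL17A1, COL7A1, DST, PLEC, CD151). FN1, THBS1 and TNC encode fibronectin and 2 matricellular proteins, CD44 encodes a hyaluronan receptor, and FERMT1 encodes kindlin-1. RNA was sequenced from N/TERT-1 cells, an immortalised human keratinocyte line, as single-end poly(A)-selected libraries in 4 genotypes: NT, KAT2A_KD, KAT2B_KD and KAT2AB_KD. KAT2A and KAT2B are paralogous histone acetyltransferases, and the series title names stemness and differentiation of keratinocytes as its subject. Every genotype was sampled at 3 stages of culture, Subconfluent, Confluent and Differentiated (day 4 in the deposited sample table), with 2 libraries in each of the 12 groups. The labels do not explain NT, here the control, nor how the knockdowns were made. They do not say that the 2 libraries of a group came from separate cultures. Each p-value sets a difference against the spread within groups, estimated over all 12 groups together, and that spread may be technical variation.

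The basement membrane is a thin sheet of laminin and type IV collagen networks, linked by nidogens and by the proteoglycans perlecan (HSPG2) and agrin (AGRN). Basal keratinocytes grip it through integrins, which are pairs of an alpha and a beta chain, and through hemidesmosomes, in which the ITGA6-ITGB4 integrin and collagen XVII (COL17A1) bind laminin, while plectin (PLEC) and BPAG1 (DST) join them to keratin filaments. Collagen VII (COL7A1) forms the anchoring fibrils below the sheet. Keratinocytes leave the basement membrane when they differentiate, and they make fibronectin and fibronectin-binding integrins in culture and in wounds.

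The results turn mostly on TNC, THBS1, FN1 and the COL4A1-COL4A2 pair, so the sequence just before their transcription start sites is shown, 5′ to 3′ on the strand of the gene, from RefSeq on build GRCh38.p14. RefSeq promoter windows were found for 29 of the 35 members. Capitals mark matches to 4 short motifs, which were searched on both strands. One is the TATA box, with the letters TATAA. Another is the box with the letters CCAAT, which reads ATTGG in the THBS1 sequence because it lies on the opposite strand. The others are the cyclic AMP response element TGACGTCA and a site of the TEAD factors, spelled GGAATG. The first 3 sequences are the 250 bases before the start site of TNC (chr9:115118158-115118407, minus strand), THBS1 (chr15:39580829-39581078, plus strand) and FN1 (chr2:215436069-215436318, minus strand). The last is the whole gap of 126 bases between the start sites of COL4A1 and COL4A2, which are transcribed away from each other (chr13:110307158-110307283, shown on the plus strand, the strand of COL4A2).
TNC: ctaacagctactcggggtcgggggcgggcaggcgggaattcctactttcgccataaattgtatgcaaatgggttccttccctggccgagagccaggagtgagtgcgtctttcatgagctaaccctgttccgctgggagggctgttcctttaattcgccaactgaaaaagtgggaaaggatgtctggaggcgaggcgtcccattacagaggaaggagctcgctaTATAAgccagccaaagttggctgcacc
THBS1: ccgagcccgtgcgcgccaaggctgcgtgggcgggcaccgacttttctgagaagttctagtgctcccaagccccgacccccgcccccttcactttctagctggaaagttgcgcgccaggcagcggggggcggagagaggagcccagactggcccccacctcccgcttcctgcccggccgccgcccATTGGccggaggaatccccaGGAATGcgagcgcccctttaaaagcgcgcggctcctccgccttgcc
FN1: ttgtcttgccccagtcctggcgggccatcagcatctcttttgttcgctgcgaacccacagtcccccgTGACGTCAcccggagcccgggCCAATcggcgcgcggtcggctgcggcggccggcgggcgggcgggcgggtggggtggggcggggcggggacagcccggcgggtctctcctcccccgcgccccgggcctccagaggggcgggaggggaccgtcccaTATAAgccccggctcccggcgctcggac
COL4A1-COL4A2: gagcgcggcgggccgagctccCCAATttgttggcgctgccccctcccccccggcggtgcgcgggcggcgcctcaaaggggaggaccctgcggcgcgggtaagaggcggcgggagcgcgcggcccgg
The TATAA match of TNC began 27 bases before the start site, and that of FN1 28 bases before it. The TATA box occurred in 18.9% of all 35116 windows of 250 bases and in 8 of the 29 members. A member was counted if any of its windows held the motif. The 29 members had 39 windows, so shares of members and of windows are not directly comparable. The CCAAT box occurred in 32% of windows and in 12 members, and the TEAD site in 11.9% and in 4 members. The cyclic AMP response element occurred in 1.65% of windows and in FN1 alone among the members with a window. The AP-1 site TGANTCA, which none of the printed sequences holds, occurred in 6.57% of windows and in 2 members, LAMA3 and LAMB3. COL4A5 and COL4A6 also lie head to head, with 379 or 1415 bases between their start sites, depending on which of the COL4A6 starts is used. These matches describe the letters only.

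Libraries held 8010178 to 16054003 counts. Summed keratinocyte markers stood at 14430 to 75109 CPM (read counts scaled to library size with TMM factors). In every knockdown library the targeted gene was below both NT libraries of its stage: KAT2A ran from 1.67 to 10.4 CPM in the libraries of KAT2A_KD and KAT2AB_KD and from 9.995 to 38.5 in NT, and KAT2B from 0.152 to 18.9 in those of KAT2B_KD and KAT2AB_KD and from 4.06 to 44.8 in NT. The 6 differentiation markers (KRT1, KRT10, IVL, FLG, LOR and DSG1) summed to 398 to 882 CPM before differentiation and to 16203 to 46100 at Differentiated. Of the markers of other cells, the 8 fibroblast genes summed to 1.44 to 7.78 CPM at Subconfluent and Confluent and to 31.9 to 53.7 at Differentiated. COL1A1 made nearly all of that rise, since none of the other 7 exceeded 20 reads in any library. The 6 melanocyte genes summed to 2.51 to 7.97 CPM at Subconfluent, 1.52 to 3.95 at Confluent and 6.11 to 10.7 at Differentiated; PMEL (up to 88 reads) and SOX10 (up to 108) had reads in every library, and TYR had none in any. The 5 endothelial genes summed to at most 0.392 CPM before differentiation and to 0.377 to 3.46 at Differentiated, where VWF reached 42 reads, and CDH5 had none in any library. All 3 lists were thus higher at Differentiated than at Confluent, and their part in the stage changes of the members was not tested. In bulk RNA, fewer cells of a type and less RNA per cell cannot be told apart. The strand setting of the counting is not given, so reads of a member and of an overlapping or antisense gene cannot be told apart either.

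Before differentiation, growth to confluence in NT came with lower levels of fibronectin, thrombospondin-1 and 2 integrin chains. FN1, THBS1, the collagen receptor chain ITGA2 and the vitronectin receptor chain ITGB5 fell from Subconfluent to Confluent, and no member rose, so 4 of 35 members passed where 0.901% of all genes tested did, 0.216% lower. The sign was negative for 30 of the 35, and their median log2 change was -0.45, where that of all genes was 0. FN1 read 12219 and 5553 CPM in the 2 Subconfluent libraries and 1952 and 2508 in the Confluent ones. The groups did not overlap, but the Subconfluent pair lay far apart, and the log2 change was -1.99 ± 0.44 (standard error of the fit, used throughout), with an adjusted p of 0.0305. THBS1, thrombospondin-1, stood at 6189 and 5827 CPM and then at 2335 and 1555, a log2 change of -1.63 ± 0.25 (adjusted p = 0.00133). ITGB5 went from 50.2 and 56.7 CPM to 23.7 and 22.6, a log2 change of -1.20 ± 0.23 (adjusted p = 0.00846). ITGA2 went from 149.9 and 124 CPM to 58.7 and 64.4, a log2 change of -1.15 ± 0.27 (adjusted p = 0.0489). The log2 changes of COL4A1 (-1.41), ITGB6 (-1.24), COL4A2 (-1.27) and LAMA3 (-1.03) did not pass, with adjusted p of 0.0751 to 0.144. Only 0 to 2 of the 4 calls passed when 1 of the 4 libraries was left out. ITGB5 and ITGA2 did not pass without any 1 of them (adjusted p of 0.0551 to 0.339). FN1 passed only without NT Subconfluent library 2, and THBS1 missed only without NT Confluent library 2 (0.0641).

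Differentiation split the set. In NT, 9 members rose and 7 fell between Confluent and Differentiated, and 19 did not pass. At this stage 50.4% of all genes passed, 24.3% higher and 26.1% lower, so the members' count is close to the background. The chains that rose were the laminin chain LAMB2, both nidogens, collagens VII and XVII, COL4A5, and the integrin chains ITGAV, ITGB8 and ITGB5. Those that fell were FN1 and THBS1, COL4A1 and COL4A2, and the integrin chains ITGA3, ITGA5 and ITGB4. In KAT2A_KD, 8 members rose and 7 fell (43.1% of all genes passed). In KAT2B_KD, 6 rose and 14 fell (39.6%, with 20.3% lower), and in KAT2AB_KD, 10 rose and 8 fell (46.2%). For KAT2B_KD, 10 members fell with RLE scaling, 12 with no filter, 14 by DESeq2 and 9 in the fit of the compared groups alone. The shares of all genes that passed either way were 39.7%, 29.9%, 41.1% and 29.8%. In all 4 genotypes, 6 members rose (ITGAV, ITGB8, LAMB2, COL17A1, COL4A5 and NID1) and 6 fell (ITGA3, ITGB4, COL4A1, COL4A2, FN1 and THBS1). Of all genes tested, 27.5% passed in the same direction in all 4. For each of these 12 members the 8 Differentiated libraries did not overlap the 8 Confluent ones, and for the other 23 they did, where 32.5% of all genes did not overlap, so both counts of 12 in 35 are close to the background. In the fit of the compared groups alone, the count for KAT2AB_KD was 9 in place of 18, and its calls of COL17A1 (adjusted p = 0.059), COL4A5 (0.0641), NID1 (0.0768) and ITGB4 (0.107) were lost. No member was called in opposite directions, 13 passed in 1 to 3 genotypes, and 10 passed in none.

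**Figure D1:**
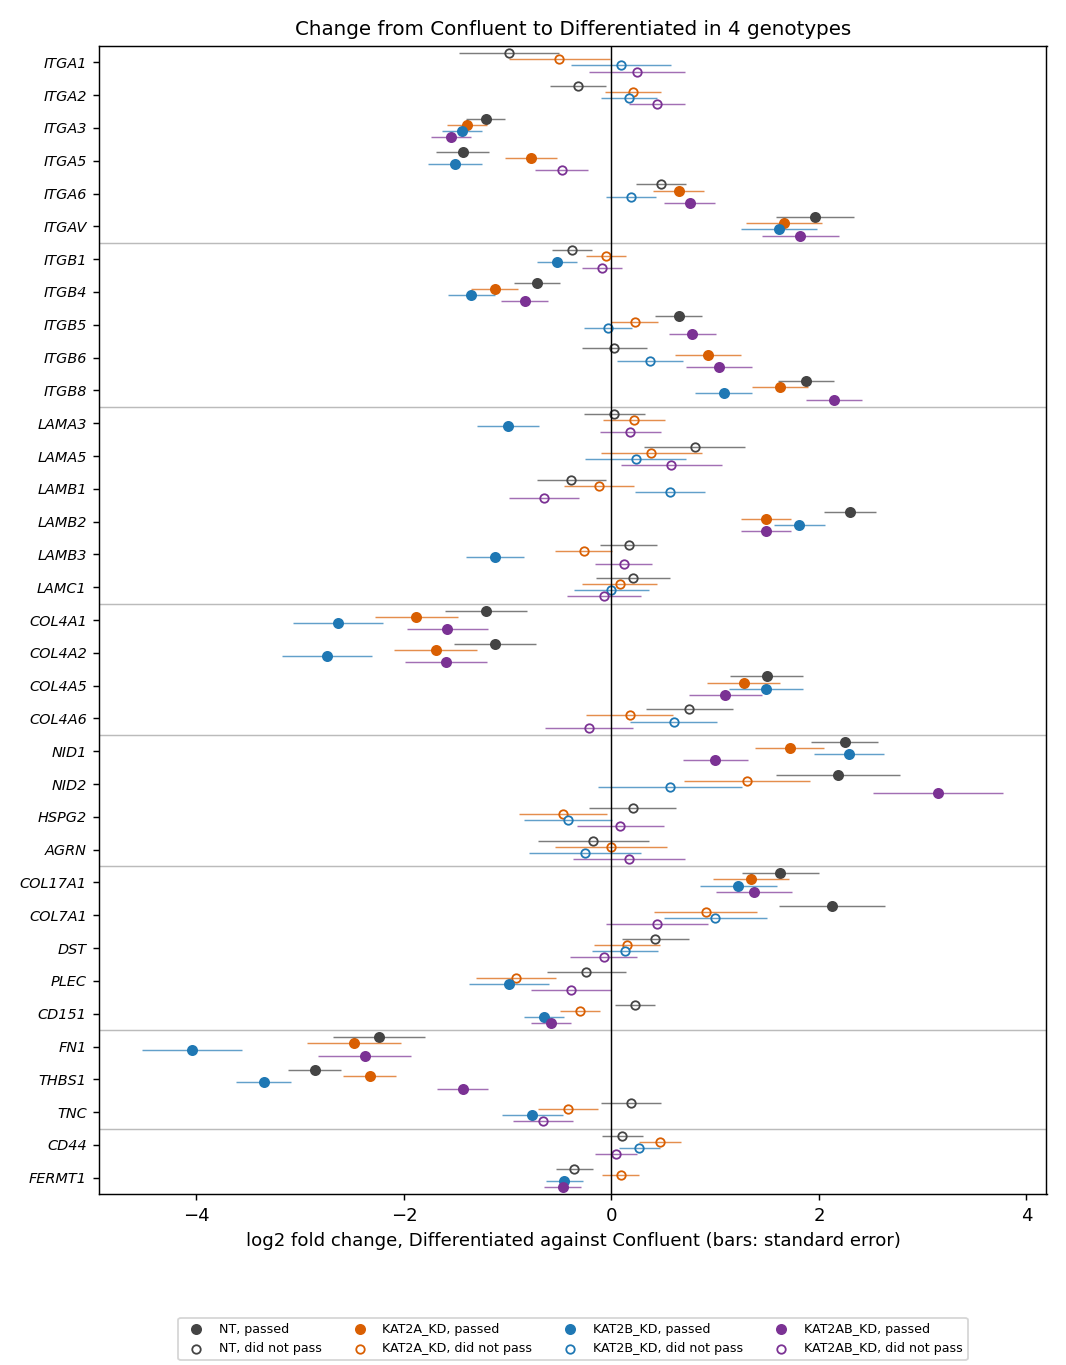
Log2 fold change of the 35 members from Confluent to Differentiated (horizontal axis) in each of 4 genotypes, with the standard error of the fit as bars. Filled points passed at an adjusted p under 0.05, open ones did not, and grey lines separate the functional groups. ITGAV, ITGB8, LAMB2, COL17A1, COL4A5 and NID1 sit to the right and ITGA3, ITGB4, COL4A1, COL4A2, FN1 and THBS1 to the left in all 4 genotypes.

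Among integrin alpha chains, ITGAV, the partner of ITGB1, ITGB5, ITGB6 and ITGB8, rose. NT had 52.8 and 78.4 CPM at Confluent and 304 and 207 at Differentiated, a log2 change of 1.96 ± 0.37 (adjusted p = 0.000219). In the 6 knockdown libraries of each stage it ranged from 53.6 to 107 and from 154 to 358, and the log2 change was 1.61 to 1.82. ITGA3, whose pair with ITGB1 binds laminin, fell from 610.2 and 571 to 263 and 246 CPM in NT, by 1.21 ± 0.19 on the log2 scale (adjusted p = 2.65e-05). In the knockdowns ITGA3 ranged from 354 to 648 at Confluent and from 118 to 264 at Differentiated. ITGA5, the fibronectin receptor chain, fell from 69.5 and 74.4 to 28.6 and 24.5 CPM in NT (-1.44 ± 0.26, adjusted p = 0.000124). It also fell in KAT2B_KD (-1.51) and KAT2A_KD (-0.78), while in KAT2AB_KD, with 84.2 and 65.1 CPM before and 59.4 and 47.6 after, the change of -0.48 did not pass (adjusted p = 0.126). The KAT2A_KD call did not pass without KAT2A_KD Confluent library 1 (0.0879) or 2 (0.0513) or Differentiated library 2 (0.27). ITGA6, the hemidesmosome alpha chain, rose in KAT2A_KD (0.65 ± 0.24, adjusted p = 0.0366) and KAT2AB_KD (0.75 ± 0.24, 0.0154), from 550.3 to 759.7 CPM in their Confluent libraries to 971 to 1217 in their Differentiated ones. Both calls were lost without 1 library: the adjusted p reached 0.245 without KAT2A_KD Confluent library 1 and 0.168 without KAT2AB_KD Confluent library 2. The collagen-binding chains ITGA1 and ITGA2 passed in no genotype, and ITGA1 had only 1.18 to 7.20 CPM.

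Of the beta chains, ITGB8 rose most steadily. It had 13.3 and 21.0 CPM at Confluent and 69.5 and 56.4 at Differentiated in NT (1.87 ± 0.27, adjusted p = 1.18e-05), and 36.5 and 22.1 and then 124 and 137 in KAT2AB_KD (2.15 ± 0.27, 2.55e-06). KAT2B_KD showed the smallest of the 4 changes, from 15.7 and 23.2 to 37.0 and 44.9 (1.08 ± 0.27), which missed the threshold without its Confluent library 1 (0.0757). ITGB4, the hemidesmosome beta chain, fell from 597 and 531 to 391 and 295 CPM in NT (-0.72 ± 0.23, adjusted p = 0.0123). The 6 knockdown libraries held 465 to 631 CPM of ITGB4 at Confluent and 206 to 364 at Differentiated. The NT call was lost without NT Confluent library 1 (0.0772) or NT Differentiated library 2 (0.174), and the KAT2AB_KD call without Confluent library 1 (0.0767) or Differentiated library 1 (0.0951). ITGB4 and ITGA6 encode the 2 chains of 1 receptor, and their counts moved apart: the ratio of ITGB4 to ITGA6 reads, not corrected for length, had a median of 1.17 over 8 Subconfluent libraries, 0.854 over 8 Confluent ones and 0.313 (0.226 to 0.449) over 8 Differentiated ones. The lowest ratio at Confluent was 0.78, so the Differentiated libraries stood below all of the others. ITGB5 rose slightly in NT (23.7 and 22.6 to 43.4 and 29.2 CPM, 0.65 ± 0.23, adjusted p = 0.0226) and in KAT2AB_KD (33.0 and 25.4 to 53.6 and 46.8, 0.78 ± 0.22, 0.00762). The NT call was lost without any of the libraries except NT Differentiated 2, and that of KAT2AB_KD without its Confluent library 2 (0.0944). ITGB6, part of an epithelial receptor for latent TGF-beta, rose in KAT2A_KD (39.2 and 44.7 to 73.9 and 85.4 CPM, 0.93 ± 0.32) and KAT2AB_KD (44.2 and 25.5 to 54.6 and 88.4, 1.03 ± 0.32), and both calls were lost without any 1 of several libraries (adjusted p up to 0.17). ITGB1, the common beta chain, passed only in KAT2B_KD, with 397 and 421 and then 249 and 318 CPM (-0.53 ± 0.19, 0.0357, and up to 0.302 without 1 library).

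Of the laminin chains, LAMB2 moved apart from LAMA5, LAMB1 and LAMC1, while LAMA3 and LAMB3 kept closer to each other. The ratio of LAMB3 to LAMA3 reads stayed within 0.474 to 0.801 over 24 libraries, while LAMB3 ranged over 5.03-fold and LAMA3 over 5.16-fold. LAMB2 had the largest rise of the set in NT, from 28.4 and 36.2 to 181 and 137 CPM (2.30 ± 0.25, adjusted p = 2.94e-07). Its knockdown libraries ranged from 33.8 to 62.4 at Confluent and from 99.96 to 143 at Differentiated, with log2 changes of 1.49, 1.81 and 1.49 in KAT2A_KD, KAT2B_KD and KAT2AB_KD. LAMA5, LAMB1 and LAMC1, the chains with which LAMB2 or LAMB1 builds the broadly expressed laminins, passed in no genotype. Their changes ran from 0.24 to 0.80 for LAMA5, from -0.65 to 0.57 for LAMB1 and from -0.07 to 0.21 for LAMC1. LAMA3 and LAMB3 of the hemidesmosome laminin changed only in KAT2B_KD among the 4 genotypes tested one by one. LAMB3 went from 285 and 331 CPM at Confluent to 124 and 159 at Differentiated there (-1.12 ± 0.28, adjusted p = 0.00333), and LAMA3 from 482 and 573 to 192 and 337 (-0.997 ± 0.30, 0.0119). In NT, LAMB3 stood at 309 and 289 CPM before and 392 and 279 after, and LAMA3 at 396 and 428 before and 489 and 352 after. The LAMB3 call was lost without KAT2B_KD Differentiated library 1 (0.054), and that of LAMA3 without the same library (0.183) or Confluent library 2 (0.0748). The difference from NT in this change did not pass for LAMA3 or LAMB3.

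Of the type IV collagen chains, COL4A1 and COL4A2 fell in all 4 genotypes, COL4A5 rose in all 4 and COL4A6 passed in none. COL4A1 and COL4A2 are the ubiquitous chains that form 1 network and share the gap printed above. COL4A1 read 69.8 and 40.2 CPM at Subconfluent, 22.8 and 18.7 at Confluent and 11.3 and 6.60 at Differentiated in NT, and COL4A2 read 114 and 74.4, 39.7 and 38.6, and 23.1 and 12.8. The last step was -1.21 ± 0.40 for COL4A1 (adjusted p = 0.0155) and -1.12 ± 0.40 for COL4A2 (0.0234). It was larger in KAT2B_KD, though the difference from NT did not pass: COL4A1 went from 14.9 and 21.8 to 1.31 and 4.41 CPM (-2.64 ± 0.44) and COL4A2 from 36.0 and 39.8 to 4.12 and 7.10 (-2.74 ± 0.43). The difference of those changes from NT had adjusted p of 0.325 for COL4A1 and 0.229 for COL4A2. The ratio of COL4A2 to COL4A1 reads stayed within 1.398 to 3.14 over 24 libraries, while COL4A1 ranged over 53.3-fold and COL4A2 over 28.4-fold. COL4A5, from the pair found in epidermal basement membrane, rose from 42.2 and 48.8 to 145 and 112 CPM in NT (1.496 ± 0.35, adjusted p = 0.00152), and its knockdown libraries from 21.7 to 42.2 up to 49.0 to 129.9. Its partner COL4A6 passed in no genotype, with 21.7 and 25.1 and then 49.1 and 29.5 CPM in NT (0.75 ± 0.42, adjusted p = 0.146). The ratio of COL4A6 to COL4A5 reads was 0.264 to 0.402 in the 8 Differentiated libraries and 0.482 to 0.799 in the 16 others. In NT the COL4A1 call was lost without NT Confluent library 1 (0.0876) or NT Differentiated library 2 (0.185), and the COL4A2 call without either of these (0.0766, 0.25) or NT Confluent library 2 (0.064). In KAT2AB_KD the COL4A2 call missed without Differentiated library 1 (0.0545), and the COL4A5 call without Confluent library 2 (0.183) or Differentiated library 2 (0.227). In KAT2A_KD COL4A5 missed without Confluent library 2 (0.0508).

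**Figure D2:**
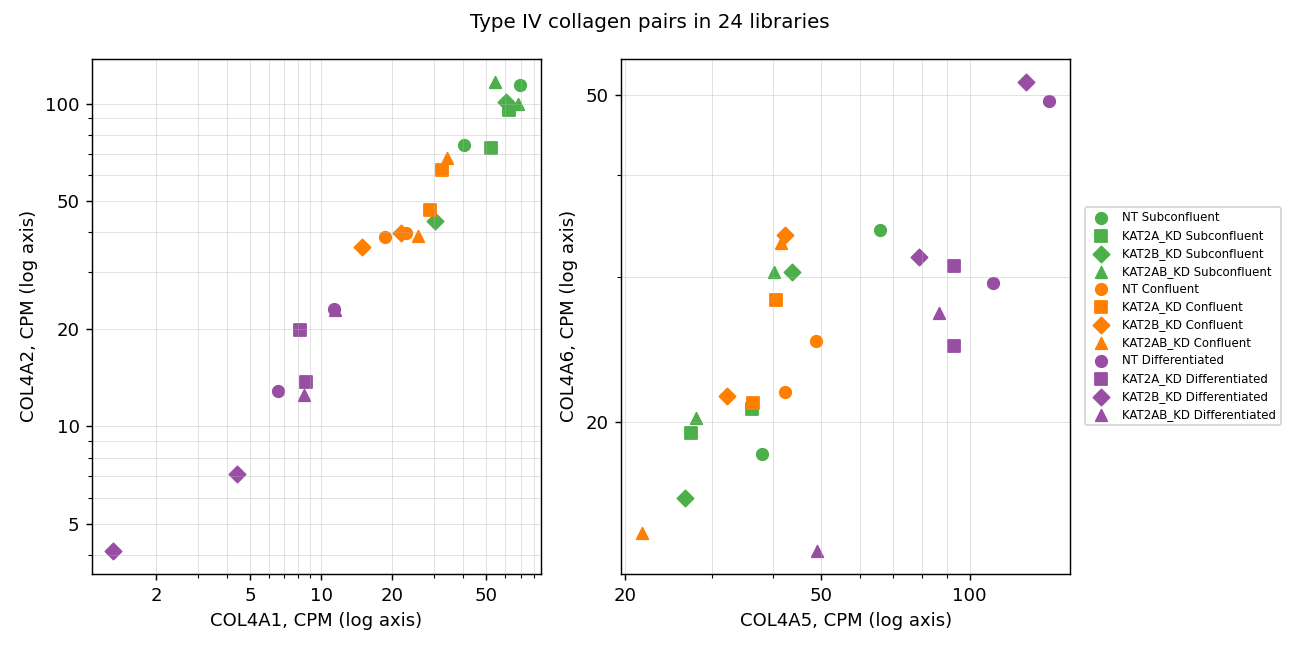
CPM of COL4A2 against COL4A1 (left) and of COL4A6 against COL4A5 (right) in 24 libraries, both axes on a log scale, with colours for stages and marker shapes for genotypes. On the left the points follow 1 line from Subconfluent down to Differentiated, with both KAT2B_KD Differentiated libraries lowest (COL4A1 at 1.31 and 4.41), and on the right the Differentiated libraries lie to the right of the others for a given COL4A6.

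Both nidogens, which bridge laminin and type IV collagen, rose in NT. NID1 had 6.67 and 3.27 CPM at Confluent and 23.9 and 23.2 at Differentiated (2.25 ± 0.33, adjusted p = 1.05e-05). It rose in each knockdown, to 14.7 and 11.9 in KAT2A_KD, 16.4 and 18.7 in KAT2B_KD and 10.9 and 15.5 in KAT2AB_KD. The last was the smallest change (1.0002 ± 0.31), and was lost without KAT2AB_KD Confluent library 2 (0.155) or Differentiated library 2 (0.137). NID2 had few reads, 1 to 58 in each library, with 0.628 and 1.21 CPM rising to 3.68 and 4.81 in NT (2.19 ± 0.60, adjusted p = 0.00479, and 0.0629 without NT Confluent library 1). In KAT2AB_KD it rose from 0.635 and 0.278 to 4.04 and 4.41 (3.15 ± 0.63), and in KAT2B_KD it read 0.519 and 0.482 and then 0.748 and 0.747, which did not pass, nor did KAT2A_KD (1.31, adjusted p = 0.0888). Of the proteoglycans, HSPG2 and AGRN passed in no genotype, with log2 changes of -0.47 to 0.21 and -0.26 to 0.17. AGRN was among the least reproducible members: its KAT2B_KD Subconfluent libraries read 84.6 and 361 CPM. In the same libraries HSPG2 read 68.8 and 196, LAMA5 25.6 and 119, and PLEC 131 and 413, so library 2 was the higher for each. Library 2 was above library 1 in 11 of the 12 groups for AGRN, 10 for PLEC, and 9 for HSPG2 and for LAMA5. For NID1 and for CD151 it was above in 3. The cause was not tested.

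Of the hemidesmosome and anchoring fibril genes, COL17A1 rose in all 4 genotypes. NT went from 601 and 715 CPM to 2409 and 1659 (1.63 ± 0.37, adjusted p = 0.00113), and the knockdowns from 276 to 746 up to 935 to 1932. The KAT2B_KD call (1.22 ± 0.37) was lost without Confluent library 1 (0.0766) or 2 (0.0541) or Differentiated library 2 (0.0809), and the KAT2AB_KD call (1.37 ± 0.37) without Confluent library 2 (0.0917) or Differentiated library 2 (0.0643). COL7A1 rose in NT, from 77.2 and 87.4 to 464 and 253 CPM (2.12 ± 0.51, adjusted p = 0.0018). In the knockdowns its change of 0.91 in KAT2A_KD and 0.44 in KAT2AB_KD did not pass (adjusted p of 0.149 and 0.492), nor did that in KAT2B_KD (0.117), and no difference of these changes from NT passed either. PLEC fell in KAT2B_KD, from 272 and 341 to 122 and 187 CPM (-0.99 ± 0.39, adjusted p = 0.049), and this was lost without any 1 of the 4 libraries. CD151, a tetraspanin bound to laminin-binding integrins, fell in KAT2B_KD (208 and 173 to 132 and 111 CPM, -0.65 ± 0.19, 0.0112) and KAT2AB_KD (187 and 210.2 to 151 and 114, -0.58 ± 0.19, 0.0184). Both calls were lost without 1 library, such as Confluent library 1 of KAT2B_KD (0.111) and Confluent library 2 of KAT2AB_KD (0.111). DST passed in no genotype (-0.08 to 0.42). FERMT1, an activator of integrins, fell slightly in KAT2B_KD (-0.45 ± 0.18, 0.0492) and KAT2AB_KD (-0.47 ± 0.18, 0.038), and both calls were lost without 1 library. CD44 passed in no genotype, with 379 to 735 CPM over 24 libraries.

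FN1 and THBS1 made the largest falls in NT. FN1 dropped from 1952 and 2508 CPM to 614 and 330.0 in NT (-2.24 ± 0.45, adjusted p = 0.000327) and from 3494 and 4222 to 215 and 254 in KAT2B_KD (-4.04 ± 0.48, 1.58e-06). KAT2A_KD went from 2962 and 2901 to 546 and 503 (-2.48 ± 0.45), and KAT2AB_KD from 2665 and 1224 to 302 and 447 (-2.38 ± 0.45). The difference between KAT2B_KD and NT in this change did not pass (-1.80 ± 0.61, adjusted p = 0.198). THBS1 dropped from 2335 and 1555 to 325 and 209.9 CPM in NT (-2.86 ± 0.26, adjusted p = 2.6e-08), and from 1539 and 1789 to 148 and 178 in KAT2B_KD (-3.35 ± 0.26). The fall was smaller in KAT2AB_KD, from 2119.7 and 1828 to 737 and 725 (-1.43 ± 0.25). The difference of its change from that of NT, 1.43 ± 0.34 on the log2 scale, passed (adjusted p = 0.0425), where 1.33% of all genes did, and was the only one among the 35 members and the 3 knockdowns. It was lost in 6 of the 8 refits without 1 library, for example without NT Differentiated library 2 (0.21), and in the fit of the compared groups alone (0.266). For KAT2A_KD and KAT2B_KD, 0 members differed from NT in this change (0.616% and 0.888% of all genes did). At an unadjusted p under 0.05 there were 1 and 9, and by DESeq2 0 and 2. Together FN1 and THBS1 took 1.15 to 2.27% of all counts at Subconfluent and 0.0242 to 0.116% at Differentiated.

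Of the knockdowns against NT, the clearest difference lay in TNC, tenascin-C, a matricellular protein of wound edges. In NT it stood at 65.0 and 47.6 CPM at Subconfluent, 60.1 and 59.4 at Confluent and 76.7 and 59.5 at Differentiated. KAT2AB_KD read 265 and 241, 292 and 174, and 127 and 168 at these stages. KAT2A_KD read 116 and 144, 166 and 178, and 125 and 132, and KAT2B_KD 20.9 and 39.5, 55.6 and 55.9, and 25.0 and 40.7. From Confluent to Differentiated TNC passed in KAT2B_KD alone, where it was lower, as were 20.3% of all genes. By group means the order at each stage was KAT2AB_KD, KAT2A_KD, NT, KAT2B_KD, from high to low, and only KAT2AB_KD and KAT2A_KD overlapped, at Confluent and at Differentiated. KAT2AB_KD was above NT by 2.17 ± 0.30 at Subconfluent (adjusted p = 0.000253), 1.96 ± 0.30 at Confluent (0.000596) and 1.11 ± 0.29 at Differentiated (0.0443). The first 2 calls held without any 1 of the 4 libraries, and the last did not hold without any of them (0.0768 to 0.356). KAT2A_KD was above NT by 1.52 ± 0.29 at Confluent (0.014), a call lost without any 1 of the libraries (0.074 to 0.171). Its differences of 1.20 ± 0.29 at Subconfluent and 0.92 ± 0.29 at Differentiated did not pass (0.0886 and 0.139). KAT2B_KD was below NT at Differentiated by 1.05 ± 0.29 on the log2 scale (0.0446, and 0.345 without KAT2B_KD library 1). It did not pass at Subconfluent (-0.90 ± 0.29, 0.609) or Confluent (-0.10 ± 0.29). The single knockdowns differed from each other: TNC was higher in KAT2A_KD than in KAT2B_KD by 2.10 ± 0.30 at Subconfluent (0.00106), 1.62 ± 0.29 at Confluent (0.013) and 1.97 ± 0.30 at Differentiated (0.000811). The Confluent call was lost without any 1 of the 4 libraries (0.0615 to 0.297), and the other 2 were kept in every such refit. KAT2AB_KD was not tested against KAT2A_KD.

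**Figure D3:**
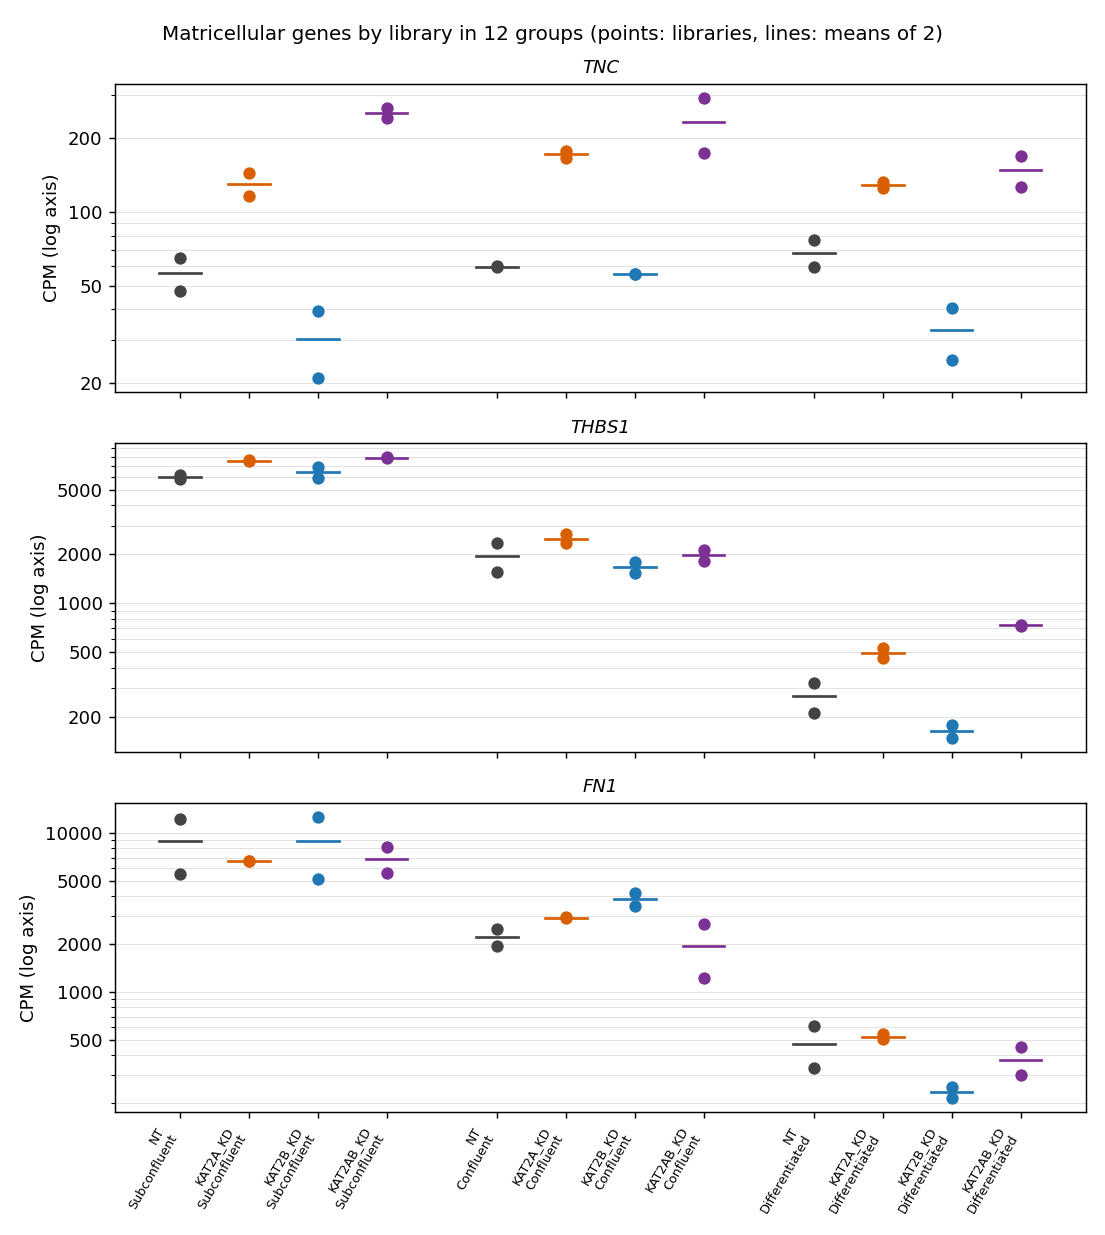
CPM of TNC, THBS1 and FN1 on log axes in the 12 groups, ordered by stage and then genotype, with 1 point for each library and a line at the mean of 2. By group mean TNC is highest in KAT2AB_KD (single libraries from 127 to 292) and lowest in KAT2B_KD (single libraries from 20.9 to 55.9). THBS1 and FN1 step down from Subconfluent to Differentiated in every genotype.

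Before differentiation the knockdowns differed from NT in few members. At Subconfluent, 0 of 35 passed in KAT2A_KD (0.343% of all genes did) and 0 in KAT2B_KD (0.0888%), with 6 at an unadjusted p under 0.05 in each. DESeq2 called 1 member in KAT2A_KD (0.901% of all genes) and 0 in KAT2B_KD (0.419%). In KAT2AB_KD 2 passed (2.70%), TNC and ITGB1. ITGB1 stood at 768 and 643 CPM in NT and at 418 and 353 in KAT2AB_KD (-0.87 ± 0.19, adjusted p = 0.0163). The groups were apart, but the call was lost without NT library 1 (0.145) or KAT2AB_KD library 1 (0.0736) or 2 (0.213). At Confluent TNC was the 1 member that passed in KAT2A_KD (0.647%) and in KAT2AB_KD (2.28%). In KAT2B_KD 0 passed (0.463%), 0 at an unadjusted p under 0.05 and 0 by DESeq2 (0.990%).

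At Differentiated, KAT2B_KD was lower than NT in 6 members, among them both chains of the COL4A1-COL4A2 network. No member was higher, and 17.1% of the set passed where 4.85% of all genes did, 3.18% lower. The 6 were NID2, COL4A2, COL4A1, LAMB3, TNC and ITGB5. COL4A1 read 1.31 and 4.41 CPM in KAT2B_KD and 11.3 and 6.60 in NT (-1.61 ± 0.44, adjusted p = 0.0415), and COL4A2 4.12 and 7.10 against 23.1 and 12.8 (-1.67 ± 0.43, 0.0282). LAMB3 read 124 and 159 against 392 and 279 (-1.24 ± 0.28, 0.0122). LAMA3, at 192 and 337 against 489 and 352, did not pass (-0.67 ± 0.30, 0.229). NID2 read 0.748 and 0.747 CPM against 3.68 and 4.81 (-2.49 ± 0.62, 0.0222), which is 8 to 10 reads in each KAT2B_KD library. ITGB5 read 17.9 and 22.8 against 43.4 and 29.2 (-0.83 ± 0.23, 0.04). All 6 calls were lost without NT library 1 or without KAT2B_KD library 1, and 3 were left without NT library 2 or KAT2B_KD library 2. KAT2B_KD library 1 also had the lowest TMM factor (0.666) and the smallest share of counts in the set (0.406%), whose part in the result was not tested.

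KAT2AB_KD at Differentiated had 4 members higher and 1 lower than NT (14.3% of the members, where 2.74% of all genes passed). THBS1 stood at 737 and 725 CPM against 325 and 209.9 (1.45 ± 0.25, adjusted p = 0.00375). ITGA5 stood at 59.4 and 47.6 against 28.6 and 24.5 (1.01 ± 0.26, 0.0412), and ITGB8 at 124 and 137 against 69.5 and 56.4 (1.05 ± 0.26, 0.0377). TNC was the fourth. ITGA3 was lower, at 118 and 148 against 263 and 246 (-0.94 ± 0.19, 0.0138). THBS1 missed only without NT library 2 (0.0887), ITGA5, ITGB8 and TNC were lost without any 1 of the 4 libraries, and ITGA3 passed only without KAT2AB_KD library 2. No call was left without NT library 2, and none in the fit of the compared groups alone. In KAT2A_KD 0 of 35 passed by edgeR (1.22% of all genes did), 1 by DESeq2 (3.14%), and 8 at an unadjusted p under 0.05. THBS1 (531 and 463 CPM, 0.89 ± 0.24, adjusted p = 0.0823) and TNC (0.139) came nearest.

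**Figure D4:**
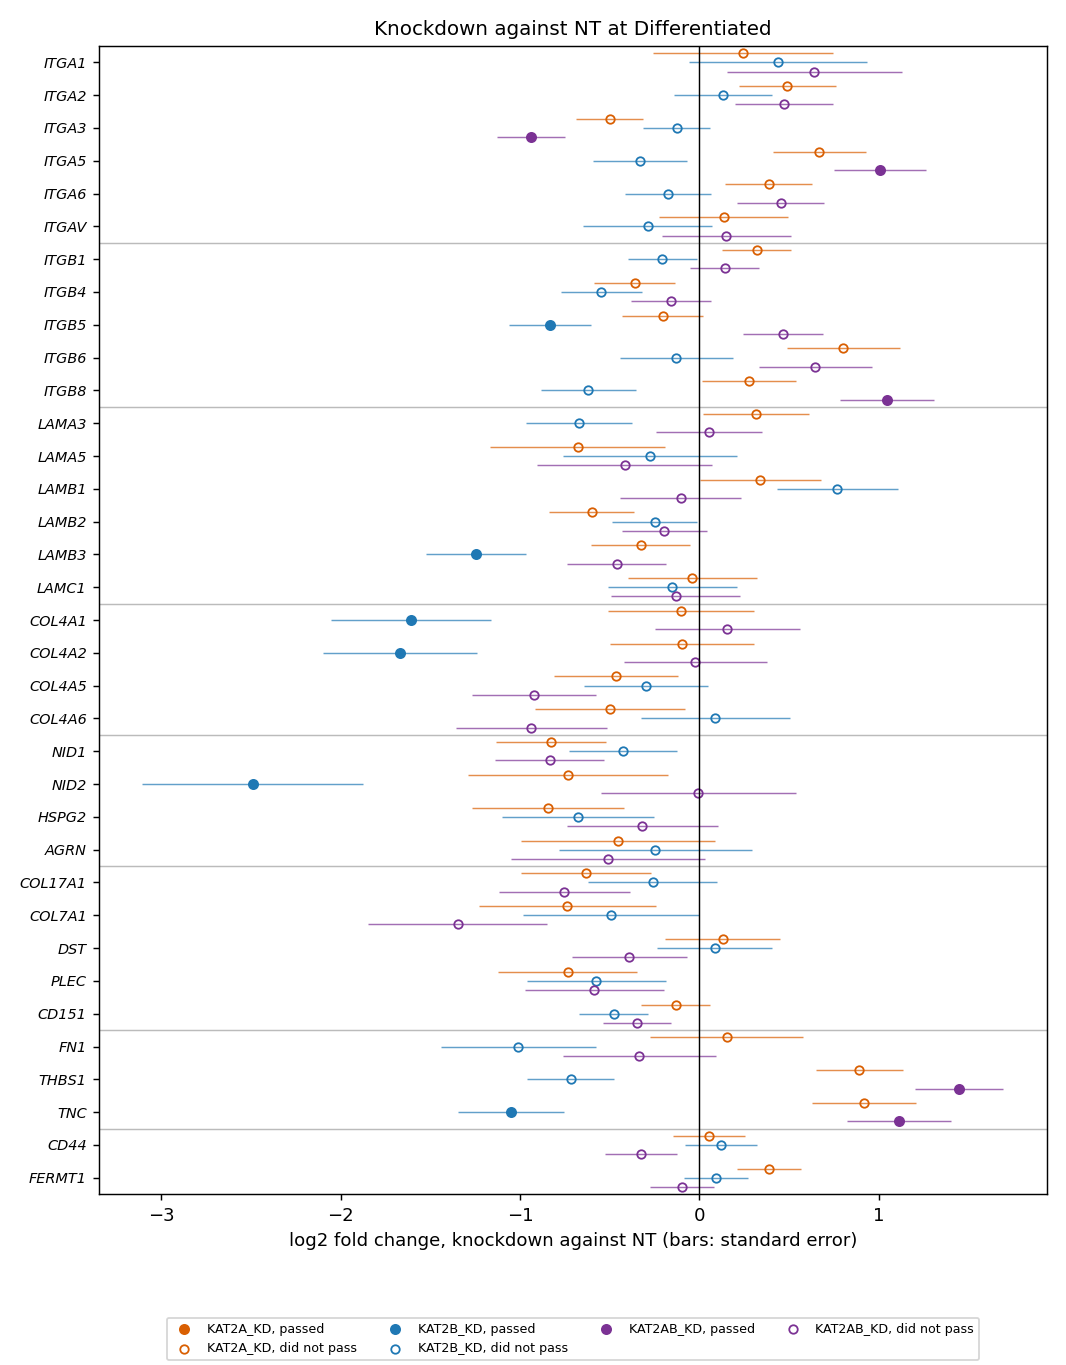
Log2 difference of the 35 members between each knockdown and NT at Differentiated (horizontal axis), with the standard error of the fit as bars. Filled points passed and open ones did not. The filled points are 6 of KAT2B_KD, all below 0, and 5 of KAT2AB_KD, of which ITGA3 alone is below 0.

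The single knockdowns also differed from each other at Differentiated. KAT2A_KD was above KAT2B_KD in 3 members and below in 0 (2.38% of all genes passed, 2.02% higher). By DESeq2 it was above in 8 (3.96% of all genes passed), and with no filter on low counts in 10 (3.19%). THBS1 stood at 531 and 463 CPM against 148 and 178 (1.61 ± 0.25, adjusted p = 0.000947), a call kept in each refit without 1 library. ITGA5 stood at 52.2 and 32.3 against 17.6 and 24.6 (1.002 ± 0.26, 0.0458). It was lost without KAT2A_KD library 1 (0.487) or KAT2B_KD library 1 (0.361) or 2 (0.0567). TNC was the third. At Subconfluent and Confluent TNC was the only member of the 35 to pass (0.533% and 0.286% of all genes did). LAMA3 (0.98 ± 0.30) and LAMB3 (0.92 ± 0.28) did not pass at Differentiated (adjusted p = 0.098 for both).

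Other genes of the same matrix and of the integrin adhesion machinery were taken from 2 lists. Of 47 further integrin, laminin and basement membrane genes 32 were tested, and 9 rose and 11 fell from Confluent to Differentiated in NT, where 24.3% of all genes rose and 26.1% fell. ECM1, a glycoprotein of the dermal-epidermal junction, rose from 1.88 and 2.21 to 15.1 and 10.6 CPM (2.64), and NTN4, a netrin that binds laminin, from 9.19 and 11.03 to 40.7 and 31.7 (1.84). ITGB7 rose from 3 and 1 reads to 94 and 55, and ITGA4 fell from 13.6 and 22.5 CPM to 0.701 and 0.471. These 4 calls held without any 1 of the libraries. Of 40 adhesome genes, all tested, 2 rose and 21 fell, with a median log2 change of -0.62 where that of all genes was -0.01. PXN, paxillin, fell from 159 and 134 to 33.3 and 29.0 CPM (-2.23), ACTN1, alpha-actinin, from 549.7 and 435 to 130.1 and 109.7 (-2.04), and CAV1, caveolin, from 1370 and 1380 to 215 and 203 (-2.72). KANK1, a talin-binding protein, rose from 18.7 and 17.4 to 50.7 and 55.3 (1.55). The knockdowns had 20 to 22 adhesome genes lower and 1 higher in the same step (39.6% to 46.2% of all genes passed). Of all 15757 genes tested, 3414 were lower and 3378 higher in KAT2A_KD, 3196 and 3045 in KAT2B_KD, and 3715 and 3557 in KAT2AB_KD. From Subconfluent to Confluent in NT 0 genes of either list passed by edgeR (0.901% of all genes did), with 9 and 5 at an unadjusted p under 0.05.

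Against NT at Differentiated, KAT2B_KD was lower in 4 and higher in 0 of the 32 basement membrane genes, and 0 of the 40 adhesome genes passed by edgeR, with 2 at an unadjusted p under 0.05 (4.85% of all genes passed, 3.18% lower). TINAGL1, a matrix protein, read 16.2 and 26.01 CPM against 73.8 and 79.0 (-1.85, adjusted p up to 0.0482 without 1 library). NTN4 (-1.20), ITGB7 (-2.44) and ECM1 (-1.05) were also lower, but their calls were lost without NT library 1 or KAT2B_KD library 1. KAT2AB_KD had 3 genes of each list past the threshold, where 2.74% of all genes passed. It was higher in ECM1 (32.0 and 33.6 against 15.1 and 10.6 CPM, 1.35), PXDN (1.94), which crosslinks type IV collagen, and LOXL2 (0.998). Of the adhesome, FERMT2, kindlin-2, was higher (13.6 and 9.05 against 2.54 and 4.62 CPM, 1.66), and TRIP6 (-1.01) and PARVA (-0.70) were lower. Each of these 6 calls was lost without at least 1 library, ECM1 without NT library 2 (0.116). In KAT2A_KD 0 genes of either list passed by edgeR (1.22% of all genes did), with 5 in each at an unadjusted p under 0.05. Chosen after its values were seen, FREM2, a protein of the embryonic dermal-epidermal junction, had 30 and 30 reads in KAT2AB_KD and 0 and 0 in NT at Subconfluent, and 48 and 20 against 1 and 0 at Confluent. These reads are a description, with no test, since the gene was picked for them. KAT2A_KD had 16 and 21 and KAT2B_KD 1 and 2 reads of FREM2 at Subconfluent.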

How the data were processed

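Poly(A)-selected RNA of N/TERT-1 keratinocytes was sequenced in 24 libraries of 12 groups. The deposited table holds raw read counts per gene symbol. Per the submitters' processing notes, FastQC, Bowtie2, featureCounts and DESeq2 were used with build hg19, with no versions; annotation, strand setting and treatment of multi-mapping reads are not given in the sources used here. The analysis of the deposited counts used edgeR 4.0.16 (R 4.3.3): filterByExpr by group (15757 of 26364 genes kept), TMM scaling, and 1 quasi-likelihood fit of the 12 groups which left 12 residual degrees of freedom (common BCV, the biological coefficient of variation, 0.218). P-values were adjusted (Benjamini-Hochberg) over all genes tested within each of 20 comparisons, with a threshold of 0.05. Counts at an unadjusted p under 0.05 have no share of all genes beside them, since that share was not counted. The precision is set by 2 libraries per group of 8010178 to 16054003 counts. The count table held 1 column of values that matched no sample, which was not used, and a deposited normalized table was not used either.

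The labels give no replicate number, so libraries 1 and 2 follow accession order and correspond to replicates 2 and 3 of the deposited sample table. Deviations of same-numbered libraries correlated above 0.1 in 38 of 66 pairs of groups and below -0.1 in 10 (median 0.136, range -0.407 to 0.562). The labels do not say what same-numbered libraries share, so the main fit did not pair libraries by number. Whether they share a batch was not tested. The members and the gene lists were chosen with earlier results of these data known. Genes are named by a rule: up to 8 members with the highest and 8 with the lowest log2 change among those past the threshold of a comparison, their partners in known complexes, and up to 4 higher and 4 lower companion genes with the lowest p in the NT stage changes and in each knockdown at Differentiated. A gene that this rule would name is not reported here. Values by library are given for NT and where a knockdown is compared, and otherwise as ranges. The fit was also run on simulated counts, with changes in a single group and in far fewer genes than passed between Confluent and Differentiated here. That run is a check of the code and is not used as support for any result. Alternatives were RLE scaling, no filter, DESeq2 1.42.0, a replicate block, the compared groups alone and leaving out each library; the same runs on companion genes were added after seeing the data. Promoter windows are from RefSeq (GRCh38.p14), while the counts were made on hg19, so no gene coordinates of the counts are given.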

Additional observations from a re-analysis of the deposited data

Results flagged for a closer look

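Effects under the same contrast differed between genotypes, by a test of the difference itself, in 6 results. TNC was higher in KAT2A_KD than in KAT2B_KD by 2.10 on the log2 scale at Subconfluent, 1.62 at Confluent and 1.97 at Differentiated. THBS1 was higher in KAT2A_KD than in KAT2B_KD at Differentiated by 1.61, and ITGA5 by 1.002. The change of THBS1 from Confluent to Differentiated differed between KAT2AB_KD and NT by 1.43. Every group compared had 2 libraries, and the TNC differences at Subconfluent and Differentiated and the THBS1 difference between KAT2A_KD and KAT2B_KD were the 3 of these 6 that passed in every refit without 1 library.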

How the results depend on the processing

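With 2 libraries per group, leaving out 1 assumes that the lone library of its group varies like the other groups. Of 94 calls of members, DESeq2 and the replicate block kept 94, no filter on low counts 90, RLE scaling 88 and the fit of the compared groups alone 69. Over 380 refits of these calls without 1 library, 251 kept the call and 129 lost it. No call changed sign under any of these alternatives. The replicate block moved the count of members for the KAT2A_KD change from Confluent to Differentiated from 15 to 16. It moved no other count of members and changed no other call. Over all genes it gave more calls in every comparison, such as 8214 in place of 7949 for NT from Confluent to Differentiated. For KAT2B_KD against NT at Differentiated it gave 870 in place of 764. The labels do not say what same-numbered libraries share, so the block is given here alone. The cause of the differences below was not tested, other than that leaving out a library or a group leaves fewer samples to estimate the spread.

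Counts of members past the threshold moved by more than 1.5 times as follows. For NT from Subconfluent to Confluent (4), no filter gave 9, DESeq2 8 and the compared groups alone 8, and leaving out 1 library gave 0 to 2. For the KAT2AB_KD change from Confluent to Differentiated (18, where 46.2% of all genes passed), the compared groups alone gave 9 (31.8%). For that of KAT2B_KD (20), leaving out 1 library gave 13 to 16. For KAT2A_KD against NT at Subconfluent (0), no filter gave 1 (1.05% of all genes) and DESeq2 1 (0.901%). At Differentiated (0) no filter gave 3 (2.39%), DESeq2 1 (3.14%) and the compared groups alone 1 (0.962%). At Confluent (1), leaving out 1 library gave 0 to 0. For KAT2AB_KD against NT at Subconfluent (2), no filter gave 4, DESeq2 4 and the compared groups alone 5, and leaving out 1 library 1 to 2. At Confluent (1), no filter gave 3 (3.53% of all genes) and DESeq2 2 (3.98%). At Differentiated (5), no filter gave 8 and the compared groups alone 0, and leaving out 1 library 0 to 2. For KAT2B_KD against NT at Differentiated (6), the compared groups alone gave 3 and leaving out 1 library 0 to 3. For KAT2A_KD against KAT2B_KD at Confluent (1), leaving out 1 library gave 0 to 0, and at Differentiated (3) no filter gave 10 and DESeq2 8. For the difference from NT in the change from Confluent to Differentiated, no filter gave 1 for KAT2A_KD (0), 4 for KAT2B_KD (0) and 2 for KAT2AB_KD (1), DESeq2 gave 2 for KAT2B_KD, the compared groups alone gave 0 for KAT2AB_KD, and leaving out 1 library gave 0 to 1 for KAT2AB_KD. In that difference, no filter passed 1.28% of all genes for KAT2A_KD, 1.63% for KAT2B_KD and 2.59% for KAT2AB_KD. DESeq2 passed 2.28% for KAT2B_KD, and the compared groups alone 0.578% for KAT2AB_KD. For KAT2A_KD against KAT2B_KD at Differentiated 3.19% of all genes passed with no filter and 3.96% by DESeq2. NID2, with 1 to 58 reads per library, is limited by depth.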
